A study of Mus musculus with 7 samples.

Results

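Ccl20 and 9 other inducible chemokine genes were followed in follicular dendritic cells (FDCs), the stromal cells that hold antigen for B cells in lymphoid follicles. The genes were chosen by symbol (Ccl20, Cxcl1, Cxcl2, Cxcl5, Cxcl9, Cxcl10, Cxcl16, Ccl2, Ccl7 and Ccl5), and 9 of the 10 have a row among the 21176 genes of the table used here. Cxcl5 was not analysed here. The set was drawn up with the genotype contrast in view, above all the level and the scatter of Ccl20, so the differences of these 9 genes between genotypes are given as a description without a test.

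FDCs had been sorted by FACS from popliteal lymph nodes of male mice aged 8 to 12 weeks that were not immunized. The wild-type group (WT) has 4 samples and the group lacking Ngfr, the gene of the neurotrophin receptor p75 (Ngfr KO), has 3, each a pool of nodes from several animals. The strain, the Ngfr allele and the markers of the sorting gate are not given in the sources used here. Values are reads per gene after TMM scaling, a correction for library size and composition, with 230 to 295 reads behind a value of 1.

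Libraries held 17244925 to 18873542 reads in WT, against 20741770 to 21538400 in Ngfr KO, so each Ngfr KO library was deeper than any WT library. The targeted gene Ngfr had 97, 181, 298 and 298 reads in WT replicates 1 to 4 and 84, 104 and 46 in Ngfr KO replicates 1 to 3. The read counts of the groups overlapped. The TMM-scaled values were narrowly apart, at 0.377 in WT replicate 1 and 0.353 in Ngfr KO replicate 2. Reads of Ngfr remained in the Ngfr KO samples, and edgeR's quasi-likelihood test on the recovered reads did not call it (log2 change -1.55, SE 0.49, adjusted p = 0.0574). FDC identity was checked on 10 defining markers, all of which were detected in all 7 libraries. Their summed value was 1744 to 4985 in WT, against 7605 to 10095 in Ngfr KO. The limma fit described below called 9 of the 10 higher in Ngfr KO, beside 18.3% of all genes tested. Of 8 B cell markers, 4 were tested and Ms4a1 alone was called higher by limma, with overlapping groups. In edgeR, which tested all 8, none was called. The B cell sums were 13.3 to 22.8 in WT, against 10.3 to 36.6 in Ngfr KO. Mitochondrial genes held 5.55% to 7.42% of reads in WT, against 3.14% to 4.97% in Ngfr KO, and the part of this difference in the results was not tested. In bulk samples such as these, fewer cells of a type and less RNA per cell cannot be told apart.

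Chemokines are small secreted proteins that guide leukocytes through G protein-coupled receptors. The inflammatory members are transcribed on demand, when cytokines such as TNF, IL-1 and IL-17 activate NF-κB or when interferons signal, and several of their mRNAs are short-lived. CCL20 is the ligand of CCR6, carried by B cells, Th17 cells and some dendritic cells. CXCL1 and CXCL2 attract neutrophils through CXCR2, CXCL9 and CXCL10 attract activated T and NK cells through CXCR3, CXCL16 is the ligand of CXCR6, CCL2 and CCL7 recruit monocytes through CCR2, and CCL5 attracts T cells and monocytes. FDCs are best known for another chemokine, CXCL13.

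The stretches upstream of 4 of these genes are shown because the inducible transcription of the group is read from short elements there. RefSeq promoter windows on GRCm38.p6 were found for 5 of the 10 genes, and the 250 bases before the RefSeq start site were searched on both strands. The sequences run 5′ to 3′ on the strand of the gene and stop before the earlier of the RefSeq and GENCODE M21 starts. Capitals mark matches to the NF-κB consensus in Ccl20, Cxcl1 and Cxcl2. In Cxcl10 the first capital run is an interferon-stimulated response element, and the other capital runs are NF-κB matches.
Ccl20, chr1:83116646-83116765, plus strand: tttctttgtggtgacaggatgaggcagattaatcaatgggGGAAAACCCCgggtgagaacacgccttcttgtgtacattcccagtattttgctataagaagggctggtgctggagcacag
Cxcl1, chr5:90891121-90891240, plus strand: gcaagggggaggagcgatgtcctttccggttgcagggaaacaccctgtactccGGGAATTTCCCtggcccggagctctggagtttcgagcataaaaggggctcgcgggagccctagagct
Cxcl2, chr5:90903751-90903870, plus strand: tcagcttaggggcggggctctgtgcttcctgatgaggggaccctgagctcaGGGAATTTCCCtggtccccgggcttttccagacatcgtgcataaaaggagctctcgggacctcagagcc
Cxcl10, chr5:92348890-92349109, minus strand: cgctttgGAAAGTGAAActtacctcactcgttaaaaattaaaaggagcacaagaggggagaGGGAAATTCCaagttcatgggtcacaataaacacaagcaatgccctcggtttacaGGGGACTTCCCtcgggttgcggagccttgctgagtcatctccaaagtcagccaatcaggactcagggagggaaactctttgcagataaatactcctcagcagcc

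The NF-κB match of Ccl20 began 80 bases upstream of the start site. In Cxcl1 and Cxcl2 the same 11-base run, GGGAATTTCCC, began 71 and 97 bases upstream and holds overlapping matches on both strands. Cxcl10 had matches 159 bases upstream and, overlapping each other, 104 and 103 bases upstream. Its response element, GAAAGTGAAA, began 213 bases upstream. Of the 32851 RefSeq windows of this length, 7.25% held the NF-κB consensus and 2.98% the response element. Cxcl9 matched neither. The exact letters TATAAA, in 12.4% of windows, were found in Cxcl9 alone, beginning 195 bases upstream. Variants of these letters were not searched, so the other genes are not shown to lack a TATA box. A match is a run of letters and does not show that a factor binds there.

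Of the 9 chemokine genes, 8 passed the filter on low values (1 or more in 3 or more samples), and Ccl7 did not. The comparison used limma on log2(value + 1) over the 8326 genes that passed, with a Benjamini-Hochberg adjusted p under 0.05 as a call. Of the 8 chemokines, 3 (Ccl20, Cxcl9 and Cxcl16) passed this threshold, all higher in Ngfr KO, as did 34.2% of all genes tested, with 18.3% higher and 15.8% lower. Because the chemokines were chosen on this contrast, nothing is read from their count, and what follows gives their values and the size of each difference. The median log2 change was 0.56 over the 8 chemokines and 0.02 over all genes tested. The groups did not overlap for Ccl20 and Cxcl16, both with Ngfr KO above WT, which held for 22.6% of all genes tested, and 40.9% did not overlap in either direction.

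**Figure D1:**
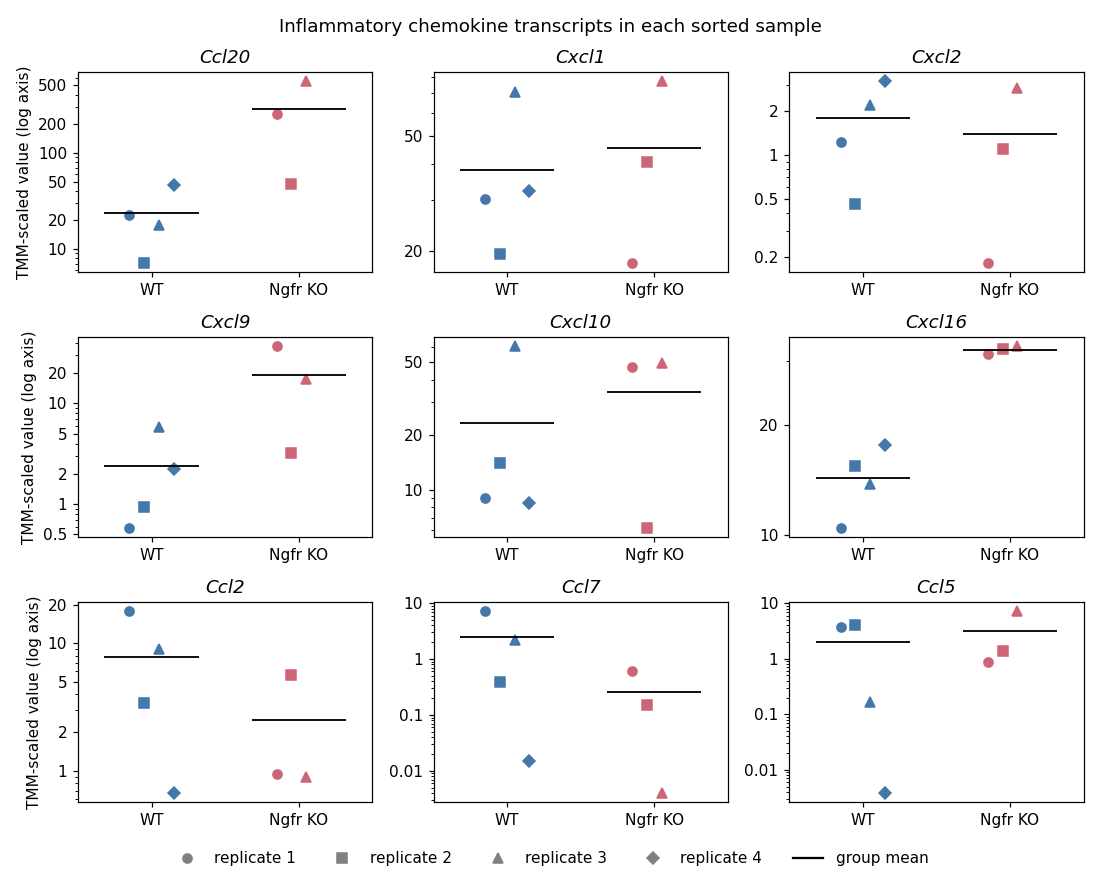
TMM-scaled value of each of the 9 chemokine genes (vertical log axis, scaled per gene) in WT (blue) and Ngfr KO (red) samples; the marker shape gives the replicate number within its group and the line the group mean. The groups are apart for Ccl20 and Cxcl16, for Ccl20 only narrowly at 46.5 against 47.6, and overlap for the other 7 genes.

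Ccl20 (ENSMUSG00000026166, chromosome 1, 83116766 to 83119167, plus strand, GRCm38) had values of 22.4, 7.18, 17.8 and 46.5 in WT replicates 1 to 4. In Ngfr KO replicates 1 to 3 it had 254, 47.6 and 556. Every Ngfr KO sample lay above every WT sample, yet Ngfr KO replicate 2 exceeded WT replicate 4 by a ratio of only 1.02. The other Ngfr KO samples exceeded replicate 2 by 5.34-fold and 11.7-fold. The mean was 23.5 ± 16.6 (SD, n = 4) for WT, against 286 ± 256 (SD, n = 3) for Ngfr KO, 12.2-fold higher. The log2 change was 3.23 (SE 0.70) on log2(value + 1) and 3.63 (SE 0.74) in edgeR on the reads.

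Depth does not limit this gene, which was covered by 1918 to 12190 reads in WT, against 14020 to 138796 in Ngfr KO. Leaving out Ngfr KO replicate 2 gave a log2 change of 4.21 and leaving out replicate 3 gave 2.45. Per kilobase of exon, Ccl20 ranked between 112 and 763 among the matched genes of the WT libraries and between 12 and 105 in the Ngfr KO libraries. Its share of the summed value per kilobase of the 9 chemokines was 13.0% to 52.4% in WT, against 43.6% to 81.4% in Ngfr KO, with WT replicate 4 above Ngfr KO replicate 2.

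Some markers of other cells that can make CCL20 also differed between genotypes. Of 8 lymphatic endothelial markers, 7 were in the table and tested. These include Pdpn and Ccl21a, and whether their reads came from lymphatic endothelium was not tested. Limma called 5 of them lower, beside 15.8% of all genes tested, and edgeR called 4, beside 6.55% of the genes it tested. The summed value of the 7 was 85.4 to 143 in WT, against 28.4 to 62.6 in Ngfr KO, and none was at 0 in any library. Of 8 epithelial markers, 3 were in the table, and Krt5, Krt8, Krt18, Krt19 and Cdh1 were not analysed here. Epcam, an adhesion molecule of epithelia, was the only one tested and was called higher, with 4.41 ± 4.54 (SD, n = 4) for WT, against 19.8 ± 4.87 (SD, n = 3) for Ngfr KO (log2 change 2.28, SE 0.48, limma adjusted p = 0.00432, edgeR adjusted p = 0.0501). The keratin gene Krt14 and the claudin gene Cldn4 were each at 0 in some libraries. The epithelial sum was nearly all Epcam and adds little to it, at 0.681 to 11.0 in WT, against 15.3 to 24.9 in Ngfr KO. The part of these cells, or of the higher FDC marker level, in the Ccl20 values was not tested.

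The ligands of CXCR3 lie side by side on chromosome 5, with 18.6 kb between them. Cxcl9 (ENSMUSG00000029417, 92321347 to 92328079, minus strand) had values of 0.580, 0.947, 5.89 and 2.26 in WT and 37.2, 3.21 and 17.4 in Ngfr KO. Ngfr KO replicate 2 lay below WT replicate 3, so the groups overlapped, while the other Ngfr KO samples stood above all of WT. The means were 2.42 ± 2.43 (SD, n = 4) and 19.3 ± 17.1 (SD, n = 3), with a log2 change of 2.32 (SE 0.63). The change was 1.61 without Ngfr KO replicate 1, 3.20 without replicate 2 and 2.14 without replicate 3.

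Cxcl10 (ENSMUSG00000034855, 92346638 to 92348889, minus strand) was more abundant, with 9.0, 13.9, 61.0 and 8.40 in WT and 46.9, 6.17 and 49.4 in Ngfr KO. Each genotype thus held both high and low samples: WT replicate 3 was the highest of all 7 and Ngfr KO replicate 2 the lowest. The log2 change was 0.59 (SE 0.71), and it was 1.52 without Ngfr KO replicate 2 and 0.11 without Ngfr KO replicate 3. WT replicate 3, the WT sample highest in both Cxcl9 and Cxcl10, was also the highest of all samples in Irf1, an interferon-induced transcription factor, at 33.9 against 6.78 to 13.9 elsewhere. On the plus strand Art3 overlaps Cxcl10, and whether the counting used strand is not given in the sources used here.

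Cxcl16 (ENSMUSG00000018920, chromosome 11, 70453983 to 70459984, minus strand), made as a membrane-bound chemokine that the protease ADAM10 can release, gave the tightest pattern of the 9 genes. Its values were 10.5, 15.5, 13.8 and 17.6 in WT and 31.2, 32.4 and 32.9 in Ngfr KO. The lowest Ngfr KO sample exceeded the highest WT sample by 1.77-fold. The means were 14.3 ± 3.03 (SD, n = 4) and 32.1 ± 0.85 (SD, n = 3), with a log2 change of 1.13 (SE 0.19), between 0.96 and 1.24 over the alternatives run. Adam10 itself was not called, at -0.14 on the log2 scale (SE 0.20, limma adjusted p = 0.594). Zmynd15 overlaps Cxcl16 on the plus strand.

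The neutrophil chemokines Cxcl1 and Cxcl2 are neighbours on chromosome 5, with 10.8 kb between them. Cxcl1 (ENSMUSG00000029380, 90891241 to 90893115, plus strand) had 30.2, 19.5, 71.1 and 32.3 in WT and 18.2, 40.5 and 77.3 in Ngfr KO. The lowest and the highest of the 7 values were both Ngfr KO samples. Its log2 change of 0.17 (SE 0.46) took a negative sign without WT replicate 2 (-0.09) and without Ngfr KO replicate 3 (-0.32). Cxcl2 (ENSMUSG00000058427, 90903871 to 90905938, plus strand) was low, with 1.23, 0.460, 2.21 and 3.22 in WT and 0.181, 1.10 and 2.90 in Ngfr KO. The groups overlapped, and the log2 change was -0.28 (SE 0.39), or 0.15 without Ngfr KO replicate 1. Ngfr KO replicate 1 had the lowest value of both genes, although it was the highest sample for Cxcl9 and the second highest for Ccl20.

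The monocyte chemokines Ccl2 and Ccl7 are also adjacent, 8.26 kb apart on chromosome 11, and stood highest in WT samples. Ccl2 (ENSMUSG00000035385, 82035571 to 82037453, plus strand) had 17.8, 3.39, 9.04 and 0.671 in WT and 0.943, 5.62 and 0.901 in Ngfr KO. WT spanned a 26.5-fold range, and the group means were 7.72 ± 7.56 (SD, n = 4) and 2.49 ± 2.71 (SD, n = 3). The log2 change was -1.07 (SE 0.67), -0.53 without WT replicate 1 and -1.69 without WT replicate 4. Gm17268 overlaps Ccl2 on the minus strand.

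Ccl7 (ENSMUSG00000035373, 82045712 to 82047525, plus strand) had 7.19, 0.389, 2.19 and 0.0153 in WT and 0.613, 0.149 and 0.00400 in Ngfr KO, and reached a value of 1 in 2 samples only. Those were WT replicates 1 and 3, the same samples that led for Ccl2. The lowest value stands for 1 read and that of WT replicate 4 for 4 reads, where 3 reads are taken as the limit of detection. On the recovered reads edgeR gave a log2 change of -3.16 (SE 1.54). Limma called all 7 tested blood endothelial markers lower, beside 15.8% of all genes tested. In edgeR 7 of 8 were called lower, beside 6.55% of the genes it tested. The blood endothelial sums were 80.9 to 127 in WT, against 19.7 to 33.9 in Ngfr KO. For reticular stroma, another source of CCL2, limma called 4 of 5 tested markers higher, beside 18.3% of all genes tested. In edgeR only 2 of 8 were called higher, beside 8.67% of the genes it tested. The reticular sums were 33.8 to 75.1 in WT, against 91.7 to 128 in Ngfr KO. Grem1 was at 0 in at least 1 library. Their part in the values of Ccl2 and Ccl7 was not tested.

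Ccl5 (ENSMUSG00000035042, chromosome 11, 83525778 to 83530518, minus strand), a chemokine made in quantity by T and NK cells, had 3.72, 4.11, 0.165 and 0.00381 in WT and 0.874, 1.40 and 7.20 in Ngfr KO. WT replicate 4 held 1 read and WT replicate 2 held 1099. The groups overlapped, and the log2 change was 0.53 (SE 0.61), or -0.12 without Ngfr KO replicate 3. Of 12 T and NK cell markers, 9 were in the table, 5 were tested and none was called by limma, also at an unadjusted p under 0.05. None of the 9 was called by edgeR, also at an unadjusted p under 0.05. The summed value of the 9 was 2.08 to 10.4 in WT, against 6.91 to 8.50 in Ngfr KO, lowest in WT replicate 3. The cytotoxic granule gene Nkg7 was at 0 in WT replicates 3 and 4, the samples with the lowest Ccl5, and highest at 3.68 in Ngfr KO replicate 3, the sample with the highest Ccl5. Other markers of the list ran differently. The CD3 chain genes Cd3e, Cd3d and Cd3g and the adhesion gene Cd2 were lowest among the Ngfr KO samples in replicate 3 (0.116, 0.725, 0.561 and 0.657). In WT replicate 4 Cd3d was 2.14, Cd2 1.53 and the summed value 7.21, above the sums of Ngfr KO replicates 2 and 3. Whether T or NK cells set the Ccl5 values was not tested.

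**Figure D2:**
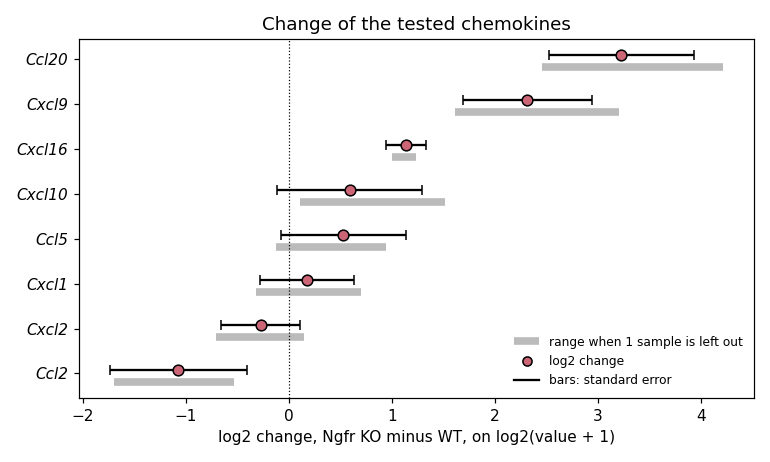
Log2 change of the 8 tested chemokines, Ngfr KO minus WT on log2(value + 1) (points), and the range of the estimate when 1 sample is left out (grey bars). The standard errors are those of the limma fit, which draws on all genes tested. Cxcl16 has the narrowest range, and the bars of Cxcl1, Cxcl2 and Ccl5 cross 0.

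Per kilobase of exon, the order of mean levels in WT was Cxcl1 (20.4 ± 12.0), Ccl20 (16.5 ± 11.7), Cxcl10, Ccl2, Cxcl16, Ccl7, Ccl5, Cxcl2 and Cxcl9 (0.802 ± 0.804; SD, n = 4). In Ngfr KO it was Ccl20 (201 ± 179.9), Cxcl1 (24.2 ± 15.9), Cxcl10, Cxcl16, Cxcl9 (6.39 ± 5.66), Ccl5, Ccl2, Cxcl2 and Ccl7 (0.319 ± 0.397; SD, n = 3). In both orders the ranges of all neighbouring genes overlapped. Cxcl9 stood last in WT and above Ccl5, Ccl2, Cxcl2 and Ccl7 in Ngfr KO.

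The spread between replicates was large for most of these genes in both genotypes. The SD of log2(value + 1) among the Ngfr KO samples had a median of 0.19 over all genes tested. It was 1.80 for Ccl20, 1.62 for Cxcl9, 1.60 for Cxcl10, 1.14 for Ccl5, 1.03 for Ccl2, 1.01 for Cxcl1 and 0.86 for Cxcl2, and all 7 lay above the 99th percentile of the genes tested. Cxcl16, at 0.04, lay at percentile 2.80. Among the WT samples the same 7 genes lay above the 98th percentile, with SDs of 1.05 for Ccl20, 0.95 for Cxcl9, 1.27 for Cxcl10 and 1.51 for Ccl2 against a median of 0.21. Cxcl16 was not tight there, with a WT SD of 0.30 at percentile 75.0. The SD rests on 3 or 4 pools and is a description.

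**Figure D3:**
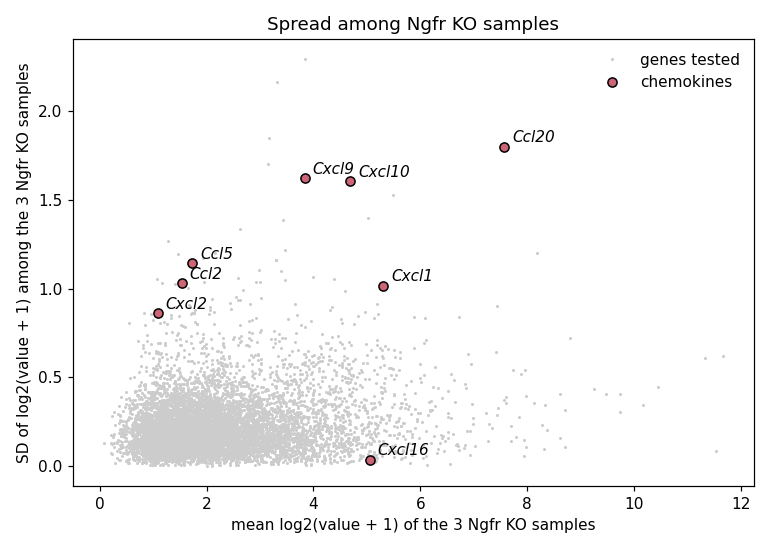
SD of log2(value + 1) among the 3 Ngfr KO samples (vertical) against their mean (horizontal) for the 8326 genes tested (grey) and the 8 tested chemokines (red). The chemokines other than Cxcl16 lie between 0.86 and 1.80, above the 99th percentile of all genes tested, and Cxcl16 lies at 0.04.

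The samples did not rank alike for all chemokines. Ngfr KO replicate 2 was the lowest Ngfr KO sample for Ccl20, Cxcl9 and Cxcl10, and Ngfr KO replicate 1 was the lowest for Cxcl1, Cxcl2, Cxcl16 and Ccl5. For Ccl2, Ngfr KO replicate 2 was instead the highest of its group. Summed per kilobase, Cxcl9 and Cxcl10 together had 33.2, 3.80 and 27.7 in Ngfr KO replicates 1 to 3, and Cxcl1 and Cxcl2 together had 9.81, 22.2 and 42.6. Myeloid cells also make several of these ligands. Of 12 myeloid markers, 11 were in the table and 5 were tested. Limma called Lyz2 and Cd14 higher, beside 18.3% of all genes tested. In edgeR 1 of 10 was called higher, beside 8.67% of the genes it tested. Cd14, a lipopolysaccharide co-receptor, had 5.72, 4.50 and 11.7 in the Ngfr KO samples against 1.10 to 1.97 in WT, and Lyz2, a lysozyme gene, had 9.19, 3.29 and 28.1 against 0.582 to 5.96. Both were lowest in Ngfr KO replicate 2 and highest in replicate 3 within that group. Marco, a scavenger receptor, was instead highest in replicate 2 (23.1, 49.8 and 1.42 in Ngfr KO replicates 1 to 3), as was Csf1r, the receptor of CSF1 (0.243, 0.838 and 0.645). Itgam, Adgre1, Tyrobp, S100a8 and S100a9 were each at 0 in at least 1 library, and the sum over the 11 was 76.7 to 109 in WT, against 41.6 to 60.9 in Ngfr KO. Single genes can carry this sum, as Marco did in Ngfr KO replicate 2 with 49.8 of 60.9, and limma called none of the 5 tested markers lower. The part of myeloid cells in the chemokine values was not tested.

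Profiles most like that of Ccl20 were sought among all genes tested by the root mean square difference between log2(value + 1) profiles over the 7 samples, each centred on its own mean. The 5 nearest were Reg3g (0.96), Coch (0.98), Serpina10 (1.04), Cxcl9 (1.11) and Ceacam15 (1.13). Reg3g encodes an antimicrobial lectin, Coch a matrix protein used here as an FDC marker, and Serpina10 a serpin that inhibits coagulation proteases. Reg3g had 0.911, 0.988, 0.878 and 0.519 in WT and 17.6, 1.04 and 17.9 in Ngfr KO. As with Ccl20, Ngfr KO replicate 2 lay barely above the highest WT sample and far below the other Ngfr KO samples. Coch had 23.8, 15.0, 28.2 and 44.3 in WT and 126, 96.2 and 156 in Ngfr KO, so it shared with Ccl20 the order of all 7 samples but WT replicates 1 and 3, with far less spread. These genes were chosen for their likeness, so their changes are no separate result.

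**Figure D4:**
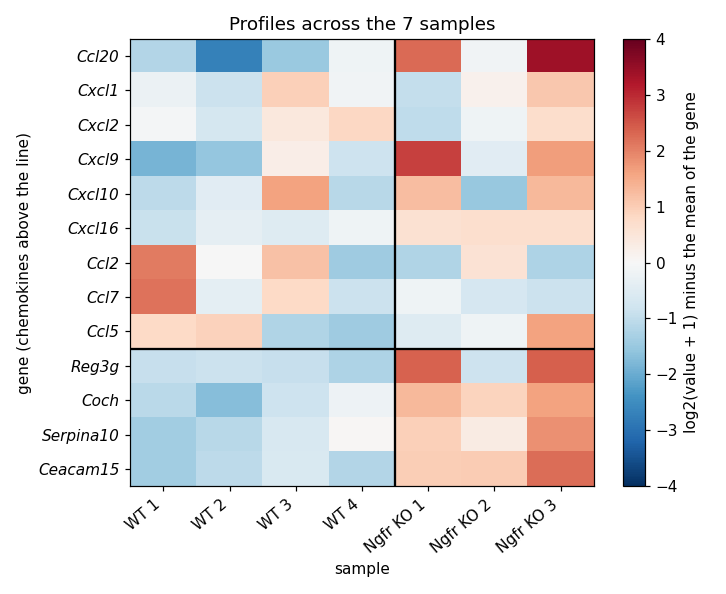
Heat map of log2(value + 1) minus each gene's mean over the 7 samples (columns), for the 9 chemokines (above the line) and the 4 other genes with profiles nearest to Ccl20 (below); red is higher and blue lower. Ccl20, Cxcl9 and Reg3g are high in Ngfr KO replicates 1 and 3 and not in replicate 2, while Ccl2 and Ccl7 are highest in WT replicate 1.

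Receptors of these ligands were then examined in the same libraries. Of the 11 listed, 9 were in the table, and the decoy receptors Ackr1 and Ackr2 alone passed the filter, without a call (log2 changes -0.06 and -0.14, limma adjusted p = 0.835 and 0.512). On the recovered reads edgeR called 15.2% of 16751 genes, 8.67% higher and 6.55% lower. Among the 9 receptors it called Cxcr6, the receptor of Cxcl16, which had 45, 52, 0 and 6 reads in WT and 222, 604 and 69 in Ngfr KO. Every Ngfr KO sample lay above every WT sample, and the edgeR log2 change was 3.51 (SE 1.06, adjusted p = 0.0490), just under the threshold. Ccr6, the receptor of Ccl20, had 51, 44, 0 and 124 reads in WT and 61, 186 and 51 in Ngfr KO, which overlapped (edgeR log2 change 0.84, SE 1.06, adjusted p = 0.635). Cxcr3 had 31 to 53 reads in WT and 90, 64 and 1 in Ngfr KO (edgeR adjusted p = 0.898). Cxcr2, Ccr2 and Ccr1 had at most 275 reads in any library and were not called by edgeR, with adjusted p-values from 0.265 to 0.597.

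Other inducible chemokines were scarce. Of 19 listed, 15 were in the table and none passed the filter. On the reads edgeR tested 9 and called Ccl8, an attractant of monocytes and other leukocytes, which is named after its values were seen. It had 223, 184, 105 and 64 reads in WT and 2, 28 and 0 in Ngfr KO (edgeR log2 change -3.89, SE 1.12, adjusted p = 0.0416), with Ngfr KO below WT in every sample.

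Among cytokines and receptors that activate NF-κB, 8 of 20 listed genes passed the filter, and limma called 2 higher and 1 lower, beside 34.2% of all genes tested. Il1r1, the signalling receptor of IL-1, had 1.96, 3.06, 1.75 and 3.31 in WT and 5.62, 5.26 and 5.82 in Ngfr KO (log2 change 0.92, SE 0.18, limma adjusted p = 0.00327). Myd88, the adaptor it shares with Toll-like receptors, rose less, by 0.46 on the log2 scale (SE 0.14, limma adjusted p = 0.0270). It was not called without WT replicate 2 or without any one of the Ngfr KO replicates. Ltb, which encodes lymphotoxin beta, the ligand that maintains FDCs, fell from 5.11 ± 1.26 (SD, n = 4) to 2.19 ± 0.327 (SD, n = 3; log2 change -0.92, SE 0.18, limma adjusted p = 0.00330). The receptor genes Tnfrsf1a, Ltbr and Il17ra had log2 changes of 0.16, -0.08 and -0.03 and were not called (limma adjusted p = 0.486, 0.735 and 0.912).

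The ligand genes Tnf, Il1b and Lta did not pass the filter. Tnf had 38 to 188 reads in WT, against 16 to 199 in Ngfr KO, and edgeR called none of the 3 (adjusted p = 0.830, 0.865 and 0.559). Il17a and Ifng were not analysed here. One receptor chain, Il17re, which binds IL-17C, had 1, 5, 2 and 2 reads in WT and 28, 156 and 20 in Ngfr KO (edgeR log2 change 4.64, SE 1.04, adjusted p = 0.0168). It was named after its values were seen, and some of its WT counts are below the limit of detection.

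NF-κB itself was followed through 18 genes of subunits, inhibitors and feedback targets, all of which were tested. Limma called 4 (3 higher and 1 lower), against 34.2% of all genes, and the median log2 change was 0.19. Traf1, a target gene that encodes a signalling adaptor, rose from 3.68 ± 0.700 (SD, n = 4) to 12.7 ± 0.683 (SD, n = 3; log2 change 1.56, SE 0.16, limma adjusted p = 0.000203). Nfkbia, the inhibitor that NF-κB induces first, had 77.4, 81.9, 164 and 127 in WT and 186, 271 and 243 in Ngfr KO (log2 change 1.10, SE 0.29, limma adjusted p = 0.0144), and the call held in 13 of 16 alternatives. Its lowest Ngfr KO value was in replicate 1, which was not the sample with the lowest Ccl20. Relb, a subunit of the noncanonical pathway, rose by 0.55 on the log2 scale (SE 0.19, limma adjusted p = 0.0449), and its groups overlapped. The Relb call held in 7 of 15 alternatives and not in edgeR (adjusted p = 0.0616). Nfkb1, the gene of the p105/p50 subunit, fell from 6.10 ± 0.580 (SD, n = 4) to 3.37 ± 0.351 (SD, n = 3; log2 change -0.70, SE 0.15, limma adjusted p = 0.00480). Feedback targets such as Tnfaip3 (log2 change 0.40, SE 0.18, limma adjusted p = 0.0985) and Birc3 (0.28, SE 0.17, limma adjusted p = 0.214) did not pass. Their groups were narrowly apart, with Ngfr KO above WT, as for 22.6% of all genes tested. The lowest Ngfr KO and highest WT values were 15.1 and 14.4 for Tnfaip3 and 16.8 and 16.7 for Birc3. The count fell to 2 without WT replicate 2 and without Ngfr KO replicate 2.

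Of 19 genes of the interferon γ axis, which induces Cxcl9 and Cxcl10, 17 were tested and limma called 6 (4 higher and 2 lower), a share close to the 34.2% of all genes tested, with a median log2 change of 0.16. Ifngr1, a chain of the receptor, had 18.5, 26.6, 30.7 and 21.7 in WT and 54.2, 75.8 and 49.4 in Ngfr KO (log2 change 1.26, SE 0.23, limma adjusted p = 0.00198). Every Ngfr KO sample of Ifngr1 lay above every WT sample. Igtp, an interferon-induced GTPase, rose by 1.02 (SE 0.27, limma adjusted p = 0.0136) and Ifngr2 by 0.62 (SE 0.22, limma adjusted p = 0.0432). The kinase gene Jak1 fell by 0.74 (SE 0.23, limma adjusted p = 0.0278) and Cd274, which encodes PD-L1, by 0.60 (SE 0.19, limma adjusted p = 0.0282). The calls held in 10 of 16 alternatives for Jak1, 9 of 15 for Cd274 and 8 of 16 for Ifngr2, and not in edgeR (adjusted p = 0.0539, 0.0756 and 0.0817). Other interferon targets, Irf1 (0.21, limma adjusted p = 0.715), Gbp2 (0.15, limma adjusted p = 0.690) and Iigp1 (0.16, limma adjusted p = 0.795), were not called. The count was 3 without WT replicate 1, without WT replicate 2 and without Ngfr KO replicate 2.

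**Figure D5:**
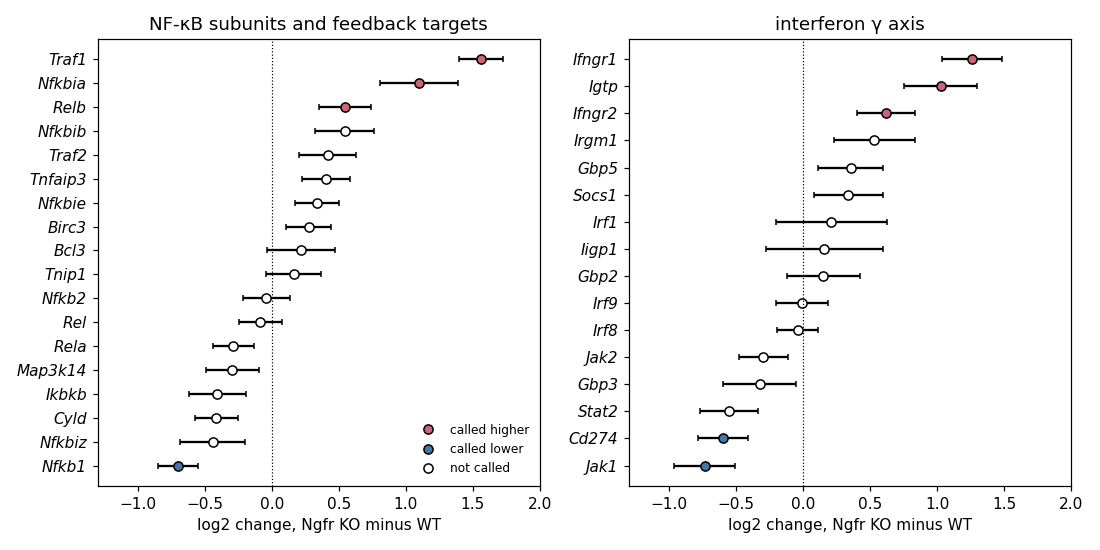
Log2 change with standard error, Ngfr KO minus WT on log2(value + 1), for the 18 tested NF-κB genes (left) and 16 of the 17 tested genes of the interferon γ axis (right); red points were called higher, blue points lower and white points not. In the panels 14 and 11 genes are white, and 65.8% of all genes tested were likewise not called.

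Chemokine mRNAs are marked for decay by AU-rich elements, which the zinc finger proteins of the Zfp36 family bind. Of 9 genes of transcript decay and shedding, 7 were tested and 3 were called, all lower, beside 15.8% of all genes called lower and 34.2% in either direction. Zfp36l2 had 9.18, 9.22, 10.4 and 7.71 in WT and 2.60, 3.28 and 5.65 in Ngfr KO (log2 change -1.11, SE 0.21, limma adjusted p = 0.00246). Zfp36l1 fell by 0.61 (SE 0.18, limma adjusted p = 0.0232), with the groups apart, and its call held in 10 of 16 alternatives and not in edgeR (adjusted p = 0.0653). Zfp36, the gene of tristetraprolin, fell by 0.93 (SE 0.33, limma adjusted p = 0.0468) with overlapping groups: 72.5, 43.9, 97.8 and 41.9 in WT and 19.5, 43.5 and 35.5 in Ngfr KO. Its call held in 6 of 16 alternatives. Ngfr KO replicate 1, the sample with the lowest Cxcl1 and Cxcl2, also had the lowest Zfp36.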

How the data were processed

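RNA of sorted FDCs was made into SMART-Seq v4 cDNA and Nextera XT libraries, per the labels' protocols. The authors deposited 1 table of 21176 genes with TMM-scaled signal per gene and sample, per the file headers, not divided by gene length. bcl2fastq 2.20.0.422 and mm10 are named in the submitters' processing notes, and the aligner, the counter and its use of strand are not given in the sources used here. All 7 columns of values were used.

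Every value was a whole multiple, within 0.01 reads, of 1 step per sample, which gave back the reads (3 reads are a value of 0.0102 to 0.0130). A fold change on log2(value + 1) understates the change of low genes. limma 3.58.1 (R 4.3.3, eBayes with trend, no covariates) was fitted to log2(value + 1) of the 8326 genes that reached 1 in 3 or more samples, with Benjamini-Hochberg adjustment over all of them. edgeR 4.0.16 was run on the recovered reads as an alternative. The scripts were tested on simulated data. Other alternatives were pseudocounts of 0.1 and 5, no filter, a filter at 10, quantile and median ratio scaling, robust eBayes, a replicate block and leaving out each sample. With 3 or 4 pools a group, limma SEs and p-values rest on the spread between pools, drawn by eBayes toward the trend over all genes. They can thus understate the scatter of genes as variable as Ccl20 and Cxcl9. The SE of Ccl20 was 0.70 in the reported fit and 1.01 with robust eBayes without trend. For Cxcl9 it was 0.63 and 0.92. Limits set by read counts cover counting error only. Gene positions and exon lengths are from GENCODE M21 (GRCm38, 21118 genes matched), and promoters from RefSeq.

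The chemokines and all lists were chosen with earlier results of these data known. Named were the chemokines, their receptors, the called genes of each list (at most 4 in each direction), textbook inducers and the 5 profiles nearest to Ccl20. Other genes that are named by value were chosen after their values were seen. Results for some listed items are not reported here.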

Additional observations from a re-analysis of the deposited data

Results flagged for a closer look

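In 3 of 39 gene profiles checked, 1 of the 4 WT samples stood apart from the other 3, measured as its gap to the nearest sample divided by the range of the group. Chance flags about 1 in 20 profiles, or 1.95 of 39, if the values are normally distributed. That was not checked for these unlogged values, some of which lie at or near 0, so the rate is only a rough guide. Cxcl10 in WT replicate 3 was 61.0 against 8.40 to 13.9 in the other WT samples, a gap of 0.895 of the range. Ccr2 in WT replicate 2 was 0.453 against 0 to 0.0389, a gap of 0.914 of the range, and Ccr1 in WT replicate 4 was 0.915 against 0 to 0.0156, a gap of 0.983. Both receptors rest on few reads, 121 and 240 in the high sample. The groups of 3 Ngfr KO samples were not checked in this way.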

How the results depend on the processing

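Of the tested chemokines, chosen on this contrast, 1 (Cxcl16) passed the threshold without the filter and 1 with robust eBayes without trend, against 3 in the reported fit. With 1 sample left out the count was 2 to 4: Cxcl9 did not pass without Ngfr KO replicate 1 or replicate 3, and Ccl2 passed without WT replicate 4. These counts describe the fits and support no result. The sign of the log2 change turned for Cxcl1 without WT replicate 2 (-0.09) and without Ngfr KO replicate 3 (-0.32), for Cxcl2 without Ngfr KO replicate 1 (0.15) and for Ccl5 without Ngfr KO replicate 3 (-0.12). Without 1 sample their changes ranged from -0.32 to 0.70 for Cxcl1, -0.71 to 0.15 for Cxcl2 and -0.12 to 0.94 for Ccl5. Over all genes, 2844 calls became 535 (359 higher, 176 lower) with the filter at 10, which tested 1297 genes, and 1614 to 3006 with 1 sample left out, the lowest without Ngfr KO replicate 2. The share of higher calls was 53.7% in the reported fit and 67.1% with that filter. The 4 NF-κB genes called became 2 without the filter, 2 with the filter at 10 (5 tested) and 2 to 6 with 1 sample left out. The 6 genes of the interferon γ axis became 2 without the filter, 3 with edgeR and 3 to 8 with 1 sample left out. Beyond the filter at 10 and the left-out samples, which test fewer genes or samples, the cause was not tested. With the replicate number as a block, 2717 genes were called, 4 chemokines (Ccl2 added, at -1.69) and 7 NF-κB genes. Same-numbered samples did not deviate together (correlations 0.298, -0.059 and -0.011), so the numbers were not taken as pairs. WT replicate 4 has no partner, so the blocked changes rest on the other 6 samples.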

Other observations

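Some scarce chemokines were found mainly in 1 library, and are given as values. Xcl1, a chemokine of NK and CD8 T cells, had 507 reads in Ngfr KO replicate 3 and at most 13 in the other 6 libraries. Ccl11, an eosinophil attractant, had 182 reads in WT replicate 1, 54 in WT replicate 2 and 247 in Ngfr KO replicate 1, and 0 in the other 4. Cxcl11, the third ligand of CXCR3, had 44 reads in Ngfr KO replicate 1, the sample with the highest Cxcl9, and at most 1 elsewhere. S100a8, a gene of neutrophils, had values of 17.4 in WT replicate 1 and 45.6 in WT replicate 4 and at most 0.602 elsewhere, while Cxcl1 and Cxcl2 did not single out these 2 samples together. These genes were picked after their values were seen, and no test was made.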
